A study of Mus musculus with 46 samples.

Results

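The variable (V) genes of the mouse T-cell receptor were followed in 46 RNA-seq samples of the MC-38 colon carcinoma model. All rows of the expression table whose symbol starts with Trav, Trbv, Trgv or Trdv and a digit were taken, which gave 170 of 48795 genes. The 115 genes with a value above 0 in at least 3 samples were used as members, and 33 of the 170 were at 0 in every sample while 22 were above 0 in 1 or 2 samples. The members were 91 of 128 Trav genes (α chain), 21 of 35 Trbv genes (β chain), 2 of 6 Trdv genes (δ chain, Trdv4 and Trdv2-2) and the 1 Trgv gene (γ chain, Trgv2) that the rule found. The annotation names the other γ-chain V genes Tcrg-V, which the rule does not match.

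A T-cell receptor gene is assembled in the developing T cell by joining 1 V segment to a joining (J) segment, with a diversity (D) segment between them in the β and δ chains, and the joined exon is then spliced to a constant (C) exon. Each T-cell clone therefore transcribes few V genes, and cells of other lineages carry no such joined gene. The V segment encodes most of the domain that contacts the peptide and the major histocompatibility complex, and its last codons open the third complementarity-determining region (CDR3), the most variable loop of the receptor.

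The antibody experiment held 4 groups of 5 tumors and the knockout experiment 2 groups of 10. Baseline tumors (n = 3) and cultured MC-38 cells (n = 3) made up the rest. WT mice received MC-38 cells under the skin of the flank and, from day 7 after implantation, isotype control or the anti-mouse PD-1 antibody muDX400 (PD-1 Ab, 5 mg/kg), and tumors were labelled 4 day after 1 dose and 8 day after 2 doses. PD-1cKO mice carried Rosa26-creERT2, a Cre recombinase that is expressed in all tissues and activated by tamoxifen, with loxP sites around part of Pdcd1 (the gene of PD-1). PD-1cKO mice and the littermates labelled WT all received tamoxifen at 40 mg/kg, and these tumors were labelled 28 day, although the methods give an earlier day of collection. The baseline tumors had no treatment. The methods describe the mice as females of 8 to 10 weeks, and all tumors grew from 1 implanted cell line.

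Levels are FPKM, the number of sequenced fragments of a gene per length of its transcript and scaled to the mapped fragments of the library, so levels of different genes are compared per length. Because V genes are short, few fragments lay behind each value, and those numbers were estimated from the steps between low FPKM values. The libraries held an estimated 8220000 to 12800000 fragments in the antibody and baseline groups apart from 1 tumor, 21300000 to 27700000 in the cell line and 20800000 to 55300000 in the 28-day groups. In the 8-day isotype control group 1 fragment of Trbv13-1 was worth 0.213 to 0.273 FPKM, against 0.0494 to 0.122 FPKM in the WT 28-day group. The exception, isotype control tumor 1 of the 4-day group, had 54.6% of its summed FPKM in mitochondrial genes against 3.45% to 4.31% in the other 4 tumors of its group. Its depth estimate was not used, and the 4-day sums, tests and T-cell marker averages are also given without it. The 10 T-cell markers were summed as a check of the labelled tissues, and gave 6.86 to 7.41 FPKM in the cell line, of which Cd247, a signaling chain of the receptor complex, made up 6.80 to 7.32 FPKM. The other 9 markers summed to at most 0.0871 FPKM there, and Cd3d, Cd3e, Cd3g, Cd8b1 and Trat1 were at 0 in all cultures. Gene-level Pdcd1 was 5.05 to 19.95 FPKM in PD-1cKO tumors and 1.71 to 7.02 FPKM in WT tumors, which does not show whether the floxed exons were removed.

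The V exons of the members that the comparisons turn on are shown 5′ to 3′ on the coding strand, from GENCODE M21 on GRCm38. Capitals mark the bases from the last in-frame cysteine codon to the exon's end, which is the part of CDR3 that the V segment itself encodes. The coordinates are chr6:41116175-41116468 (+) for Trbv13-1, chr6:41062512-41062803 (+) for Trbv5, chr6:41135320-41135616 (+) for Trbv14, chr6:41151933-41152230 (+) for Trbv16 and chr13:19336573-19336872 (−) for the last 300 of the 307 bases of Trgv2.
Trbv13-1: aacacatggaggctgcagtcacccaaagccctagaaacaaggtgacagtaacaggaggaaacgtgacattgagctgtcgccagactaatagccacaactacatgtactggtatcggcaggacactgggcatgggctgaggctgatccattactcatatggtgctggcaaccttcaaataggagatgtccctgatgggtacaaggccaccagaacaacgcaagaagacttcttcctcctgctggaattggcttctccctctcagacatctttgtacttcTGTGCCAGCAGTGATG
Trbv5: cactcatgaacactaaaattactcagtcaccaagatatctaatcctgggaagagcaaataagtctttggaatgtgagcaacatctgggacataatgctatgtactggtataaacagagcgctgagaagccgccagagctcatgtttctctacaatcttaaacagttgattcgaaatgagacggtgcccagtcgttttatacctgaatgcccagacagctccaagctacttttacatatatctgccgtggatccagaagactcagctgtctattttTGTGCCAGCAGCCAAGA
Trbv14: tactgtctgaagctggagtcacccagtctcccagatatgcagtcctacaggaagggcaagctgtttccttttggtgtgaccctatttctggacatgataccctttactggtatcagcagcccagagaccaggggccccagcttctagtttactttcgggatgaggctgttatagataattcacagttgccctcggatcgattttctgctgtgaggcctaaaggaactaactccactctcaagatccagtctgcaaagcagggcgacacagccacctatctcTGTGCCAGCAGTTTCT
Trbv16: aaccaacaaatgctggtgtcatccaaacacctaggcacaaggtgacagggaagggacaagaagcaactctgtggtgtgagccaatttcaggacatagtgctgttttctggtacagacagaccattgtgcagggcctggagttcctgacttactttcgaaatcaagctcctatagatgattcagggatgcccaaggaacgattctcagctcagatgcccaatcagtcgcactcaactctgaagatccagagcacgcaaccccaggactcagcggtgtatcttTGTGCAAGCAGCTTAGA
Trgv2: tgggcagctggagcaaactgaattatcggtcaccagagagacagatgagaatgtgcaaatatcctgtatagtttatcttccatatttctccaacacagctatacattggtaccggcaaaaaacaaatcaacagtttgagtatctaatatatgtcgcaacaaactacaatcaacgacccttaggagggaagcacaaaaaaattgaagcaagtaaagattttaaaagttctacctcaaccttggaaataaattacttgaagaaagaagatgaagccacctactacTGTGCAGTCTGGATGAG
Each exon kept 16 or 17 of its bases from that cysteine codon onward, so nearly all of what a fragment of a V gene can match lies before CDR3. These V-gene values therefore count which segment was used and carry no CDR3 sequence.

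The β- and α-chain members differ in how well a fragment can be assigned. Of the 21 Trbv members 16 shared no 50-base stretch with another gene, and 2 shared at least 50% of theirs, whereas 59 of the 91 Trav members shared at least 50%. Trbv5 shared 77.4% of its 50-base stretches and Trbv4 72.1%, both with the gene model 5830405F06Rik. Among the 112 members whose V exon could be read, 15 pairs had identical V exons, and all 30 members in these pairs were Trav genes. The α locus holds copies of whole stretches of V genes, marked d and n in the symbols. The V exons of Trav12-2 (chr14:53616623-53616914, +) and its copy Trav12d-2 (chr14:52916135-52916426, +) differed at 11 of 292 bases, marked in capitals.
Trav12-2: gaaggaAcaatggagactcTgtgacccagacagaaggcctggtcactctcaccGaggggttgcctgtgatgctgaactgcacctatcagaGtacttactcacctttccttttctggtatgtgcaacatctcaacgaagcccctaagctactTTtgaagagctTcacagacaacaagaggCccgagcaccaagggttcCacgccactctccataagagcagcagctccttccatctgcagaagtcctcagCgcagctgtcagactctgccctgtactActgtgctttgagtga
Trav12d-2: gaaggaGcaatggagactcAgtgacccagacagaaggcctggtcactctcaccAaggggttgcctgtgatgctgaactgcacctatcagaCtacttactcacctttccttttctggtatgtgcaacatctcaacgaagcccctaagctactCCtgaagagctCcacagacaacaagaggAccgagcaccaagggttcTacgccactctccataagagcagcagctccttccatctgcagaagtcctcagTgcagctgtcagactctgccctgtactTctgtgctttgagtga
The V exons of Trav3d-3 and Trav3n-3 were identical over 291 bases. A value of a single Trav copy is therefore uncertain, and how the study assigned fragments that match several genes is not stated. The 3 Trbv13 members were further apart, with 24 to 41 differences in 294 bases.

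In the cell line the V genes were nearly silent. No Trbv, Trgv or Trdv member was above 0 in any culture, and the 1 value above 0 was Trav7d-3 at 0.234 FPKM in culture 2, an estimated 2 fragments. Baseline tumors had summed Trav levels of 3.30, 4.97 and 0.559 FPKM and summed Trbv levels of 1.47, 2.91 and 0.266 FPKM. Baseline tumor 3 was the lowest for both chains. In the comparison of 8-day isotype control tumors with the cell line no member reached the filter (a mean of 0.5 FPKM in either group), so none was tested, beside 21.3% of all tested genes called in either direction. In the comparison of baseline with 8-day isotype control tumors 1 member was tested, Trbv5, which was not called (limma, log2 difference −0.03, SE 0.98, adjusted p = 0.993), beside 0.595% of all genes called.

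**Figure D1:**
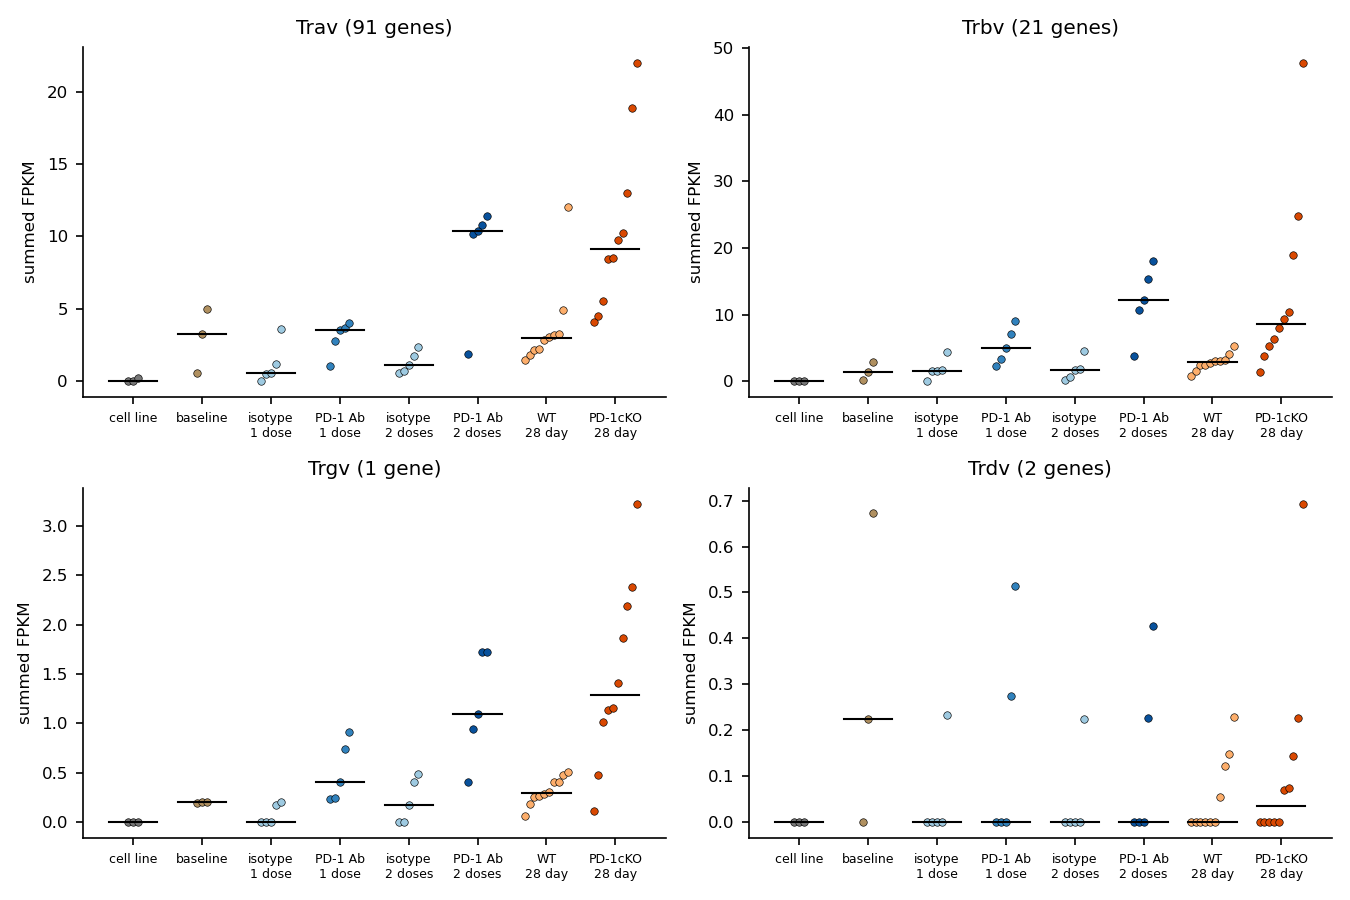
Summed FPKM of the Trav, Trbv, Trgv and Trdv members (y axes, FPKM) in each of the 46 samples (points), by group (x axis), with a line at each group's median. Trbv sums of the 8-day PD-1 Ab tumors lie between 3.78 and 18.1 FPKM and those of the isotype control tumors between 0.217 and 4.58 FPKM, and PD-1cKO tumor 8 reaches 47.8 FPKM.

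The 8-day tumors address what 2 doses of PD-1 Ab did to the receptor transcripts. Summed Trav levels in isotype control tumors 1 to 5 were 0.696, 0.571, 1.77, 2.39 and 1.13 FPKM, and in PD-1 Ab tumors 1 to 5 they were 10.2, 10.8, 11.4, 10.3 and 1.88 FPKM. Summed Trbv levels were 0.217, 1.75, 0.687, 4.58 and 1.93 FPKM with isotype control and 12.2, 18.1, 10.7, 15.4 and 3.78 FPKM with PD-1 Ab. For both chains 4 of the 5 PD-1 Ab tumors lay above every isotype control tumor, and PD-1 Ab tumor 5 lay within the range of the controls. The means were 8.92 ± 3.96 against 1.31 ± 0.763 FPKM for Trav and 12.03 ± 5.43 against 1.83 ± 1.69 FPKM for Trbv (SD, n = 5 each), ratios of 6.81 and 6.57. A sum over the members was given no test. In bulk tissue more T cells and more receptor RNA per T cell cannot be told apart.

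More members were detected as well. A mean of 26.4 of the 91 Trav members was above 0 in PD-1 Ab tumors and 7.2 in isotype control tumors, and the means were 13.2 and 4.6 of the 21 Trbv members. Over the 5 tumors of each group, 70 Trav members were seen with PD-1 Ab and 27 with isotype control, and for Trbv these numbers were 19 and 13. The sums rested on 204 Trav and 257 Trbv fragments in the PD-1 Ab group and on 28.9 and 39.0 in the isotype control group. Tumors with few fragments tended to have few members detected, as the plot of detected members against fragments shows.

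A gene was called where its adjusted p was below 0.01 and its level differed at least 2-fold. Of the 11 members tested after 2 doses 1 was called higher and none lower, beside 5.03% of all 15062 tested genes called higher and 0.272% called lower. All 11 had passed the filter through the PD-1 Ab group alone, so the count describes only those tested. The called member was Trbv13-1, a β-chain segment of the Trbv13 subgroup. It was listed at 0 in all 5 isotype control tumors and at 0.269, 4.39, 0.513, 1.53 and 0.275 FPKM in PD-1 Ab tumors 1 to 5. The groups did not overlap, but 3 of the 5 PD-1 Ab values were below the 0.640 to 0.818 FPKM that 3 fragments would be worth in the control libraries. The fitted log2 difference was 3.18 (SE 0.65, limma adjusted p = 0.00648) and depends on the 0.1 FPKM added before the log2. With 1 FPKM added it was 1.01 (limma adjusted p = 0.0476), and the call held in 2 of the 10 fits that left out 1 tumor.

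Trbv5 was the most abundant Trbv member of PD-1 Ab tumors 1, 3 and 5. Its levels were 0, 0.4655, 0.212, 1.36 and 0.218 FPKM with isotype control and 4.32, 1.15, 2.80, 1.52 and 1.91 FPKM with PD-1 Ab. PD-1 Ab tumor 2 was below isotype control tumor 4, and the other 4 were above every control (limma, log2 difference 2.53, SE 0.61, adjusted p = 0.0139). Trgv2, a γ-chain segment, was at 0, 0.174, 0, 0.406 and 0.490 FPKM with isotype control and at 1.10, 1.72, 1.72, 0.949 and 0.409 FPKM with PD-1 Ab. PD-1 Ab tumor 5 again lay within the controls (limma, log2 difference 2.27, SE 0.58, adjusted p = 0.018). Trbv26, with a log2 difference of 2.36 (limma, SE 0.67, adjusted p = 0.0271), and Trav16n, with 2.19 (limma, SE 0.71, adjusted p = 0.0421), were at 0 in every isotype control tumor. Neither passed the threshold.

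**Figure D2:**
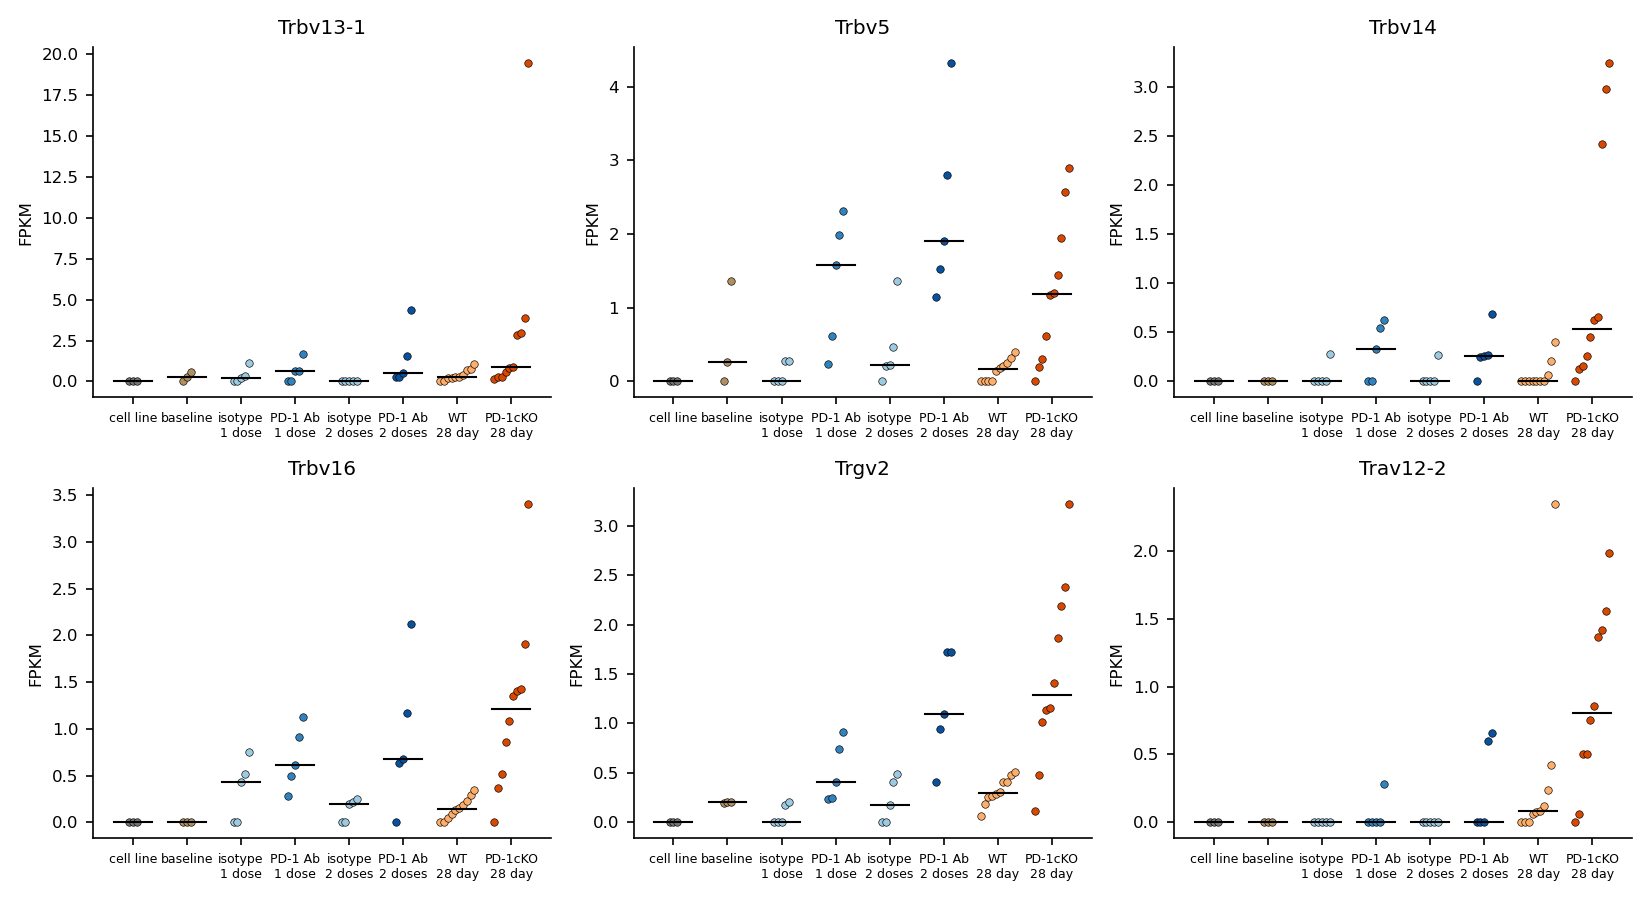
FPKM (y axes) of 6 V genes in every sample (points) by group (x axis), with a line at each group's median. Trbv13-1 is at 0 in all 8-day isotype control tumors and reaches 19.5 FPKM in PD-1cKO tumor 8, and Trgv2 lies above every WT value in 8 of 10 PD-1cKO tumors.

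The 4-day tumors ask the same after 1 dose. Summed Trav levels were 0, 0.529, 3.61, 1.196 and 0.5485 FPKM with isotype control and 1.08, 2.80, 4.02, 3.67 and 3.57 FPKM with PD-1 Ab. Summed Trbv levels were 1.53, 1.53, 1.74, 4.47 and 0 FPKM with isotype control and 2.36, 7.07, 3.39, 9.07 and 5.02 FPKM with PD-1 Ab. The groups overlapped for both chains, with 2 and 3 PD-1 Ab tumors above every control. Without the mitochondria-rich isotype control tumor 1, the difference of the means was 1.56 FPKM for Trav and 3.45 FPKM for Trbv, against 1.85 and 3.53 FPKM with it. Every Trbv fragment of that tumor was assigned to Trbv12-2, at 1.53 FPKM.

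Trgv2 was the member whose 4-day groups did not overlap in FPKM, at 0, 0.174, 0.204, 0 and 0 FPKM with isotype control and 0.910, 0.744, 0.233, 0.247 and 0.406 FPKM with PD-1 Ab. The PD-1 Ab values of 0.233 and 0.247 FPKM and the isotype control values of 0.174 and 0.204 FPKM each stand for about 1 fragment. Counted in fragments these tumors tie, and 3 of 5 PD-1 Ab tumors lay above every control. All 4 members tested had passed the filter through the PD-1 Ab group alone. None was called by limma, beside 0% called of 14556 genes. On simulated data the 4-day fit recovered only 35.5% of the changed genes. The share of all genes with an unadjusted p under 0.05 is not given, here or for later counts of members. Of the 4 members 2 had an unadjusted p under 0.05. These were Trgv2 (limma, log2 difference 1.85, SE 0.55, adjusted p = 0.435) and Trbv5 (limma, 2.77, SE 0.66, adjusted p = 0.268). Without isotype control tumor 1, in which Trgv2 was at 0, limma called none of the 4 and 7 of 14606 genes, and the same 2 members had an unadjusted p under 0.05. The log2 differences were then 1.69 for Trgv2 (SE 0.55, limma adjusted p = 0.158) and 2.58 for Trbv5 (SE 0.68, limma adjusted p = 0.097). Trbv13-1 was above 0 in 3 of 5 tumors of either group. The antibody difference after 2 doses minus that after 1 dose was tested for 11 members, of which limma called none and 2 had an unadjusted p under 0.05, beside 0% of all genes called. Trbv13-1 had 2.67 on the log2 scale (SE 1.18, limma adjusted p = 0.623).

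The 28-day tumors compare mice with an inducible loss of PD-1 with their WT littermates. Summed Trbv levels ranged from 0.870 through a median of 2.89 to 5.32 FPKM in WT tumors and from 1.46 through 8.68 to 47.8 FPKM in PD-1cKO tumors. Summed Trav levels ranged from 1.47 through 2.98 to 12.04 FPKM in WT tumors and from 4.12 through 9.15 to 22.0 FPKM in PD-1cKO tumors. For Trbv 8 of 10 PD-1cKO tumors lay above every WT tumor, and for Trav 3 of 10, since WT tumor 3 was high. The mean Trbv level was 13.6 ± 13.9 FPKM in PD-1cKO and 2.87 ± 1.24 FPKM in WT tumors (SD, n = 10 each). The difference was 10.8 FPKM, and 6.96 FPKM without PD-1cKO tumor 8. PD-1cKO tumors 8, 4 and 7 were the highest for both chains, and PD-1cKO tumor 3 was the lowest.

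In PD-1cKO tumors 4 of 15 tested members rose and none fell, beside 4.2% of all 15075 tested genes called higher and 3.87% called lower. Members were tested where a group mean reached 0.5 FPKM, which all 15 reached through the PD-1cKO group alone, so a member had to be higher there to be tested and the count supports nothing about the members as a whole. Trgv2 ranged from 0.0685 through a median of 0.294 to 0.506 FPKM in WT tumors and from 0.120 through 1.29 to 3.22 FPKM in PD-1cKO tumors. All but 2 PD-1cKO tumors, numbers 3 and 10, lay above every WT tumor (limma, log2 difference 1.71, SE 0.38, adjusted p = 0.00272). Trbv16 ranged from 0 through 0.139 to 0.351 FPKM in WT tumors and from 0 through 1.22 to 3.41 FPKM in PD-1cKO tumors. PD-1cKO tumor 3 was at 0 and the other 9 lay above every WT tumor (limma, log2 difference 2.15, SE 0.49, adjusted p = 0.00282).

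Trbv14 was at 0 in 7 WT tumors and at most 0.399 FPKM in the rest, and it ranged from 0 through 0.539 to 3.25 FPKM in PD-1cKO tumors, 6 of which lay above every WT tumor. Its fitted log2 difference was 2.26 (limma, SE 0.58, adjusted p = 0.00542). Trbv5 ranged from 0 through 0.165 to 0.399 FPKM in WT tumors and from 0 through 1.19 to 2.89 FPKM in PD-1cKO tumors. For Trbv5 7 PD-1cKO tumors lay above every WT tumor (limma, log2 difference 2.11, SE 0.55, adjusted p = 0.00578). PD-1cKO tumor 3 was the lowest for all 4 called genes, and PD-1cKO tumor 8 was the highest for all but Trbv14, which was highest in PD-1cKO tumor 7. Over all tested genes the median log2 difference was −0.20, so each of these differences was larger by that amount relative to the median gene.

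Trbv13-1, the member called after 2 doses of antibody, ranged from 0 through 0.273 to 1.04 FPKM in WT tumors and from 0.144 through 0.862 to 19.5 FPKM in PD-1cKO tumors. The groups overlapped, with 4 PD-1cKO tumors above every WT tumor, and it was not called (limma, log2 difference 1.83, SE 0.67, adjusted p = 0.0316). Trbv3 had a log2 difference of 1.68 (limma, SE 0.54, adjusted p = 0.0176) and its highest level, 6.89 FPKM, in PD-1cKO tumor 4. Among the α genes Trav13-4-dv7, which can also join the δ chain, had 1.58 (limma, SE 0.47, adjusted p = 0.0115) and Trav12-2 had 1.62 (limma, SE 0.60, adjusted p = 0.0356). Trav12d-3 had 0.85 (limma, SE 0.62, adjusted p = 0.266). These were the only Trav members that reached the filter, and none of them passed the threshold.

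The 28-day groups were also separated by runs of sample identifiers, which the labels give without saying what they mark. PD-1cKO tumors 1 to 7 formed a run with no WT tumor, PD-1cKO tumor 8 shared a run with WT tumors 1 to 9, and PD-1cKO tumors 9 and 10 shared a run with WT tumor 10. In the second run the Trbv sum was 47.8 FPKM in PD-1cKO tumor 8 and 0.870 to 5.32 FPKM in the WT tumors. In the third run it was 7.94 and 5.37 FPKM in the PD-1cKO tumors and 3.02 FPKM in the WT tumor. The corresponding Trav sums were 22.0 against 1.47 to 12.04 FPKM, and 9.77 and 4.51 against 3.30 FPKM. With the run as a covariate limma called none of the 15 members, and 9 had an unadjusted p under 0.05, a count without the share over all genes. In that fit limma also called 0 of the 15075 genes, and the log2 differences of the 4 called members were 2.17 (Trgv2), 3.77 (Trbv16), 3.19 (Trbv14) and 2.92 (Trbv5).

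The response of each member was compared between the models, as the 8-day antibody difference minus the PD-1cKO difference. Of 21 members tested limma called none, and 0 had an unadjusted p under 0.05, beside 0.0914% of all genes called. For Trbv13-1 this difference was 1.35 on the log2 scale (SE 1.08, limma adjusted p = 0.516), for Trbv14 −0.94 (SE 0.92, limma adjusted p = 0.603) and for Trgv2 0.55 (SE 0.69, limma adjusted p = 0.697). Missing the threshold does not show that the members responded alike in the 2 models.

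How the reads were spread over the V genes was summarised as evenness, the Shannon entropy of the members' FPKM shares divided by the logarithm of the number of members above 0, which is 1 where all are equal and falls as few members dominate. Trbv evenness ranged from 0.858 through a median of 0.918 to 0.983 in WT tumors and from 0.757 through 0.842 to 0.894 in PD-1cKO tumors. The groups overlapped, with 6 PD-1cKO tumors below every WT tumor. In the 8-day groups it was 0.705 to 0.913 with PD-1 Ab and 0.840 to 0.989 in the 4 isotype control tumors where it could be computed, and 2 of 5 PD-1 Ab tumors were below every control. Trav evenness overlapped fully, at 0.749 to 0.909 in PD-1cKO and 0.746 to 0.969 in WT tumors.

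Evenness and the number detected depend on how many fragments were sampled, so the number detected was also compared at equal numbers. Evenness was not set to equal numbers. The probability that 2 fragments of a tumor share a Trbv member averaged 0.152 in PD-1cKO and 0.105 in WT tumors. By this measure 1 of 10 PD-1cKO tumors lay above every WT tumor. At 8 day the isotype control tumors held 1 to 17 Trbv fragments each, too few to draw 20. In 20 fragments of each tumor an average of 8.75 Trbv members was expected in PD-1cKO tumors (SD 1.79, n = 10) and 10.0 in WT tumors (SD 0.907, n = 8 with enough fragments), and the groups overlapped. Without that correction PD-1cKO tumors had more Trbv members detected, 14.7 against 12.1 on average. For Trav, with copies of a numbered subgroup merged, 8.11 subgroups were expected in PD-1cKO and 7.85 in WT tumors, and 11.8 and 9.4 were detected without setting the tumors to equal fragments.

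**Figure D3:**
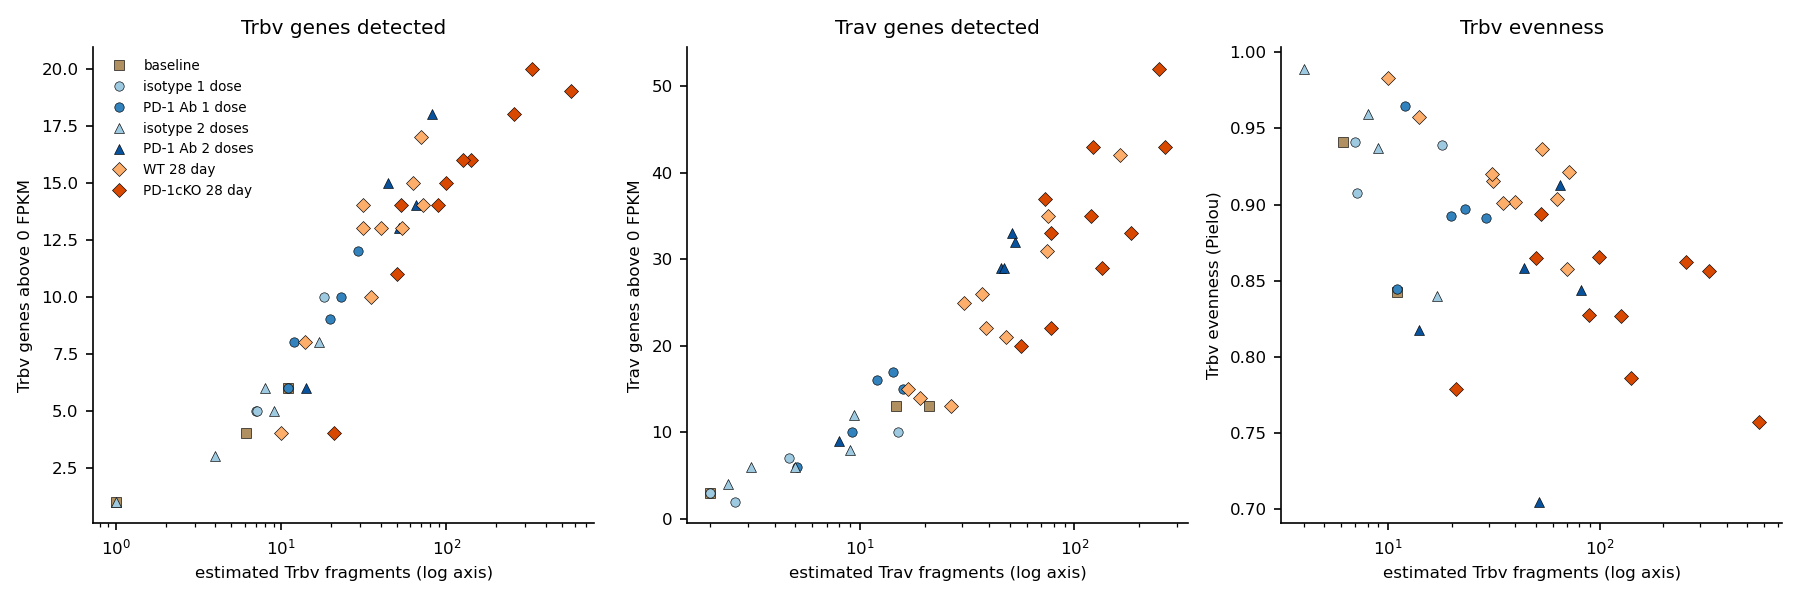
Number of Trbv members above 0, number of Trav members above 0 and Trbv evenness (y axes) against the estimated number of fragments of the chain in each tumor (x axis, log scale), colored by group. The 4-day isotype control tumor 1 is left out, and tumors with few fragments tend to have few members above 0, with exceptions such as PD-1cKO tumor 8, which has 19 Trbv members against 20 in PD-1cKO tumor 4.

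Single V genes held large shares of the β chain in single tumors, and a different gene led in different tumors. In PD-1cKO tumor 8 Trbv13-1 held 38.8% of 569 Trbv fragments (95% exact interval 34.8% to 42.98%). In PD-1cKO tumor 4 Trbv3 held 30.9% of 330 fragments (26.0% to 36.2%), and in PD-1cKO tumor 10 Trbv16 held 36.0% of 88.9 fragments (26.1% to 46.8%). Shares were computed on estimated fragments rounded to whole numbers. The intervals cover counting error only, and fragments without molecular identifiers need not be separate molecules.

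In PD-1cKO tumor 3 Trbv13-1 held 52.4% of 21 fragments (29.8% to 74.3%), a share that few fragments leave uncertain. Among the 8-day PD-1 Ab tumors Trbv5 held 34.6% of 51.8 fragments in tumor 1 (22.0% to 49.1%), where Trbv15 reached 4.12 FPKM. Trbv5 and Trbv13-1 each led the β chain in 11 tumors. The largest member's share of the summed Trbv FPKM averaged 32.2% in PD-1cKO and 22.4% in WT tumors, with 3 PD-1cKO tumors above every WT tumor. In the antibody experiment, in tumors with fewer fragments, the means of this share went the other way. Each control mean includes a tumor at 100%, however. At 8 day the share averaged 31.5% with PD-1 Ab (21.1% to 50.6%) and 47.7% with isotype control (26.6% to 100%). Isotype control tumor 1, at 100%, held 1 Trbv fragment. At 4 day it averaged 30.2% with PD-1 Ab (18.4% to 47.5%). It averaged 50.3% (25.3% to 100%) in the 4 isotype control tumors with Trbv fragments. The value of 100% there came from the mitochondria-rich isotype control tumor 1. The ranges overlapped at both times, so these means do not establish a direction.

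**Figure D4:**
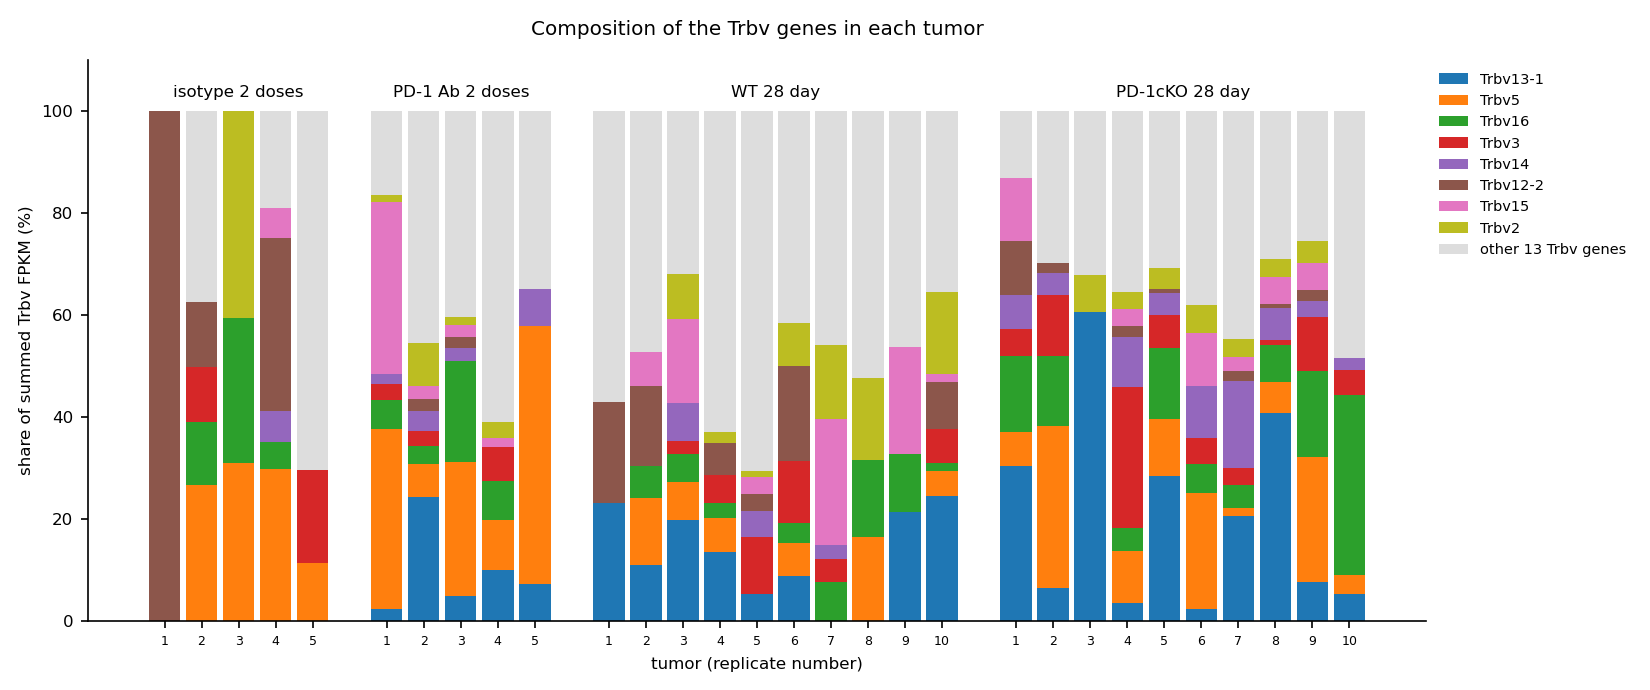
Share of the summed Trbv FPKM (y axis, percent) held by 8 named V genes and by the other 13 members together, stacked for each tumor of the 8-day and 28-day groups (x axis). Trbv13-1 holds 40.8% of the FPKM in PD-1cKO tumor 8, Trbv16 35.4% in PD-1cKO tumor 10 and Trbv5 50.6% in 8-day PD-1 Ab tumor 5.

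The α chain was spread over more members, but it has 91 of them against 21 for the β chain, and many are near-identical copies. With copies merged, 20 fragments were expected to hold 8.11 Trav subgroups and 8.75 Trbv members in PD-1cKO tumors. In WT tumors these numbers were 7.85 and 10.0. Trav12-2 led the Trav sum in 7 tumors, more than any other Trav member, and it ranged from 0 through 0.0819 to 2.35 FPKM in WT and from 0 through 0.805 to 1.99 FPKM in PD-1cKO tumors. The whole Trav12 subgroup, 9 members that include its copies, held 23.6% of the Trav fragments of the PD-1cKO group and 16.8% of those of the WT group. Its share ranged from 5.39% to 35.6% over PD-1cKO tumors and from 0% to 32.6% over WT tumors, so the ranges overlapped. Different Trav12 members led in different tumors, as the fragments were assigned. The V exon of Trav12d-3 differed from that of Trav12-3 at 10 of 301 bases, and another copy matched Trav12d-3 fully. Which copy led is therefore uncertain, and the intervals do not cover this. Trav12-3 held 34.8% of 135 fragments in PD-1cKO tumor 1 (26.8% to 43.5%), and Trav12d-3 held 22.6% of 265 in PD-1cKO tumor 8 (17.7% to 28.2%) at 5.58 FPKM. Trav7-2, the Trav member with the next highest mean over the tumors, peaked at 1.2 FPKM in PD-1cKO tumor 1.

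V-gene levels were set beside those of the constant genes, to which every V segment of a chain is spliced. The ratio of summed Trbv to summed Trbc1 and Trbc2 had medians of 0.268 with PD-1 Ab and 0.276 with isotype control at 8 day, 0.287 and 0.280 at 4 day, and 0.345 in PD-1cKO and 0.357 in WT tumors. The groups overlapped in all 3 comparisons. For the α chain, Trav over Trac had medians of 0.388 with PD-1 Ab and 0.338 with isotype control at 8 day, but 1.89 in PD-1cKO and 1.76 in WT tumors. The α ratios of the 28-day groups thus lay apart from those of the antibody groups, whereas the β ratios overlapped. In the baseline tumors, at a depth like that of the antibody groups, Trav over Trac was 0.559 to 1.19 and overlapped the 28-day range, which began at 1.13. Depth, time, tamoxifen, the mice used and the identifier run differ between the antibody and 28-day experiments and cannot be told apart.

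**Figure D5:**
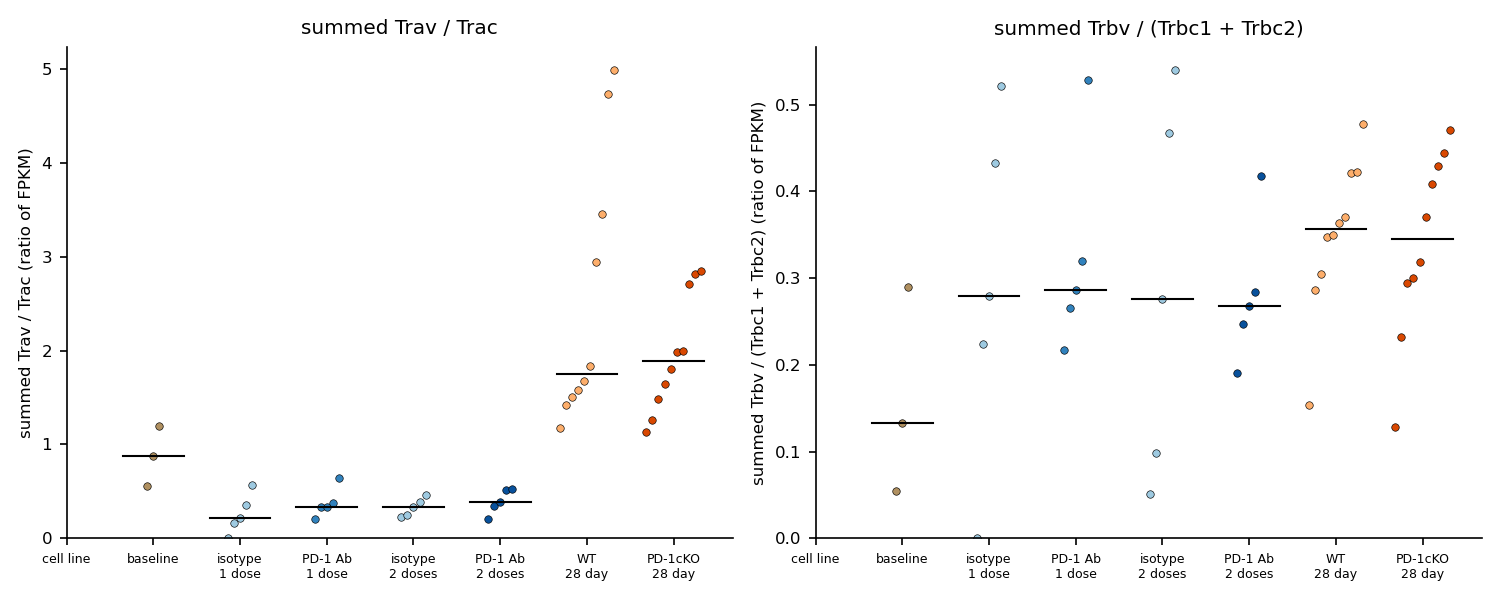
Ratio of summed Trav to Trac and of summed Trbv to the sum of Trbc1 and Trbc2 (y axes, FPKM over FPKM) for each tumor (points) by group (x axis), with a line at each group's median. Trbv ratios overlap among all tumor groups, and Trav ratios of the 28-day tumors, at 1.13 to 4.99, lie above those of the antibody groups, at 0 to 0.645.

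Genes of the receptor complex and its signaling were read beside the V genes. Of 25 listed genes 21 were tested, and 19 rose and none fell after 2 doses, with a median log2 difference of 2.47 beside −0.04 over all tested genes. Examples were Trbc1, the first β constant gene, with a log2 difference of 2.93 (limma, SE 0.42, adjusted p = 0.00129) and Cd8a, a coreceptor chain, with 3.06 (limma, SE 0.35, adjusted p = 0.000837). In PD-1cKO tumors 19 rose and none fell, with a median of 1.69 beside −0.20, and Zap70, a kinase of the receptor, had 1.90 (limma, SE 0.24, adjusted p = 0.000414). After 1 dose limma called none of the 21, with a median of 1.40 beside 0.26, and none without isotype control tumor 1, with a median of 1.29 beside −0.04. In that fit 18 of the 21 had an unadjusted p under 0.05, a count that again comes without the share over all genes. The summed T-cell markers, 10 of 10 higher in each comparison, averaged 113.9 against 17 FPKM at 8 day, 42.9 against 17.4 FPKM at 4 day and 60.9 against 17.8 FPKM at 28 day. Without Cd247, which the cell line expresses, the averages were 105.4 against 13.9, 37.99 against 12.9 and 55.9 against 16.6 FPKM, and at 4 day without isotype control tumor 1 they were 37.99 against 14.6 FPKM. Without that tumor Cd247 itself averaged 4.88 FPKM with PD-1 Ab and 4.99 FPKM with isotype control at 4 day. The count of 10 of 10 thus did not hold there.

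Trgv2 is annotated in the γ locus, so the δ-chain genes were read beside it. Trdv4 was above 0 in 1 to 4 tumors of each tumor group, at no more than 0.693 FPKM, and Trdv2-2 in 1 PD-1 Ab, 2 WT and 1 PD-1cKO tumor, at no more than 0.426 FPKM. Trdc, the δ constant gene, had medians of 0.175 FPKM with PD-1 Ab and 0.151 with isotype control at 8 day, and 0.0647 in PD-1cKO and 0.0621 in WT tumors. The γ V genes outside the rule that were read, Tcrg-V1 and Tcrg-V3 to Tcrg-V7, reached at most 0.719 FPKM in any sample. Tcrg-V1 was at 0 in every PD-1cKO tumor and reached 0.435 FPKM in WT tumors. Tcrg-V3 reached 0.457 FPKM in PD-1cKO tumors and was at 0 in every WT tumor. Tcrg-C2, a γ constant gene, had medians of 2.76 and 0.512 FPKM at 8 day and of 1.68 and 0.406 FPKM at 28 day. It was called in PD-1cKO tumors (limma, log2 difference 1.39, SE 0.36, adjusted p = 0.00568) and not at 8 day (limma, 2.23, SE 0.62, adjusted p = 0.0236). The 6 γδ T-cell markers, 5 of them higher on average, summed to means of 2.09 with PD-1 Ab and 0.772 FPKM with isotype control at 8 day, with 4 of 5 tumors above every control. At 28 day the means were 1.99 in PD-1cKO and 0.786 FPKM in WT tumors, with 5 of 6 markers higher and 6 of 10 tumors above every WT tumor. At 4 day they were 0.799 and 0.611 FPKM, and Il17a was at 0 in every sample. The part of these markers in the Trgv2 levels was not tested.

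The α segments used by T cells with near-invariant receptors were rare. Trav11 and its copy Trav11d, which natural killer T cells use, were above 0 in PD-1cKO tumors 4, 5 and 10, with Trav11d at 0.252, 0.463 and 0.127 FPKM, and at 0 in all other samples. Trav1, used by mucosal-associated invariant T cells, was above 0 in 7 tumors, at no more than 0.432 FPKM. The J segments that both cell types use, Traj18 and Traj33, were at 0 everywhere, as were all 80 J rows and 4 D rows of the table, so their absence carries no information on these cells. Among the β segments that natural killer T cells often use, Trbv29 ranged from 0 to 3.47 FPKM in PD-1cKO and to 0.292 FPKM in WT tumors, and Trbv1 to 1.92 and 0.740 FPKM. Trbv13-2 had a log2 difference of 1.47 (limma, SE 0.44, adjusted p = 0.0119), and Trbv19, often described in antiviral responses, had 1.10 (limma, SE 0.44, adjusted p = 0.0461).

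Markers of other tissue that holds T cells moved with the V genes in some tumors. The 8 lymph node stroma and naive cell markers summed to 9.98 to 63.1 FPKM in 8-day PD-1 Ab tumors and 9.37 to 15.2 FPKM in isotype control tumors, with 4 of 5 above every control. In PD-1cKO tumors they summed to 9.20 to 84.1 FPKM, with PD-1cKO tumor 7 the highest, and in WT tumors to 9.22 to 22.7 FPKM, with WT tumor 3 the highest. On average only 5 of these 8 markers were higher with PD-1 Ab at 8 day, and 5 of 8 in PD-1cKO tumors. The 7 B-cell markers reached 20.3 FPKM in 8-day PD-1 Ab tumor 2, against 2.10 to 6.35 FPKM in isotype control tumors. The 5 plasma-cell markers, all higher on average, had means of 126.8 with PD-1 Ab and 26.4 FPKM with isotype control at 8 day, with 3 of 5 tumors above every control and tumor 2 at 437.6 FPKM. At 4 day their means were 33.1 and 12.2 FPKM with 4 of 5 above, and at 28 day 139.4 in PD-1cKO and 127.6 FPKM in WT tumors with 2 of 10 above. Rag2, one of the recombinases of developing lymphocytes, was at 0 in every sample of every group, and Rag1 was at 0 in all 8-day tumors. The list of 5 thymus and recombination genes that holds both summed to 7.64 to 13.1 FPKM with PD-1 Ab and 5.54 to 6.37 FPKM with isotype control at 8 day, and the groups did not overlap. The same list summed to 6.08 to 7.59 FPKM in the cell line, and 3 of its 5 genes were higher on average with PD-1 Ab. In PD-1cKO tumors 2 of the 5 genes were higher on average, and 1 of 10 tumors lay above every WT tumor. The part of these markers in the V-gene levels was not tested.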

How the data were processed

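Total RNA was depleted of ribosomal RNA and sequenced as stranded 50-base paired ends. Per the study's methods, the authors mapped reads with the Omicsoft aligner to mouse build 38, used an Ensembl gene model and deposited gene-level FPKM. How fragments matching several genes were assigned is not stated. The members and gene lists were chosen with earlier results of these data known.

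Fragment numbers were estimated from the steps between low FPKM values. For 15 members with 1 transcript and no shared stretch, 100% of 271 values lay within 0.05 of a whole fragment, and for members with shared stretches 70.9% of 698. Each comparison was fitted over all genes with limma 3.58.1 (R 4.3.3) on log2(FPKM + 0.1), keeping genes whose group mean reached 0.5 FPKM on one side or the other, with Benjamini-Hochberg adjustment. A fold change on this scale understates the change of low genes. The difference between models or times was fitted in 1 model over the 4 groups. Sums, numbers detected and evenness were given no test. Members were named if they were among the 3 with the highest mean of their chain over the 43 tumors, were called, led a chain in a tumor, or are segments of T cells with invariant or tissue-typical receptors. Trav12d-2, Trav3n-3, Trav7d-3 and Trbv4 fall outside this rule and were named after their values were seen. Annotation was GENCODE M21 on GRCm38, which covered 99.3% of genes. The fits were tested on simulated data with 200 changed genes. They recovered 89.5% of these at 8 day, 35.5% at 4 day and 98% at 28 day. For the differences between models and times they recovered 93% and 86.5%. A lack of calls after 1 dose therefore does not show a lack of change. No source says that replicates came from separate experiments beyond separate tumors, and p-values measure the spread between tumors. The alternatives were another pseudocount, filter or scaling, a fit over all tumors, replicate and identifier-run terms, and leaving out each sample.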

Additional observations from a re-analysis of the deposited data

Results flagged for a closer look

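Of 76 sets of 4 to 10 samples examined, 13 held a sample whose gap to its neighbour exceeded Dixon's 95% critical value. Chance gives about 1 in 20 for continuous values, a rate that does not hold for sets made mostly of zeros, and in 4 of the 13 every other sample was at 0. In the 8-day PD-1 Ab group tumor 5 lay apart and low, with a summed Trav level of 1.88 FPKM and 9 Trav members detected. In the 28-day groups, WT tumor 3 lay apart and high with a summed Trav level of 12.04 FPKM and a Trbv14 level of 0.3993 FPKM. PD-1cKO tumor 8 stood above its group with a summed Trbv level of 47.76 FPKM and a Trbv13-1 level of 19.48 FPKM. PD-1cKO tumor 1 had the lowest Trav evenness of its group, 0.7491.

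The summed Trdv level was apart in PD-1cKO tumor 4 at 0.6926 FPKM, in isotype control tumor 4 of the 4-day group at 0.2331 FPKM and in isotype control tumor 4 of the 8-day group at 0.2247 FPKM. In the latter pair of tumors every other tumor of the group was at 0. The 4-day isotype control tumor 4 also stood apart for Trbv13-1 at 1.131 FPKM and Trbv14 at 0.2812 FPKM, and the 8-day isotype control tumor 4 for Trbv14 at 0.2711 FPKM. The values of Trdv and Trbv14 in these isotype control tumors stand for about 1 fragment.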

How the results depend on the processing

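In the 8-day comparison, where 1 member was called, 0 were called with 1 FPKM added and 2 without a filter (Trav3d-3 and Trav3n-3, whose V exons are identical), and leaving out 1 tumor gave 0 to 5 calls. The highest number came without PD-1 Ab tumor 5. In the PD-1cKO comparison, where 4 were called, 0 were called with 1 FPKM added, 2 without a filter, 7 with all tumors in 1 fit and 0 with identifier runs as a covariate, and leaving out 1 tumor gave 2 (without PD-1cKO tumor 4 or 8) to 6 (without PD-1cKO tumor 3 or 6). All log2 differences of the called members stayed positive, and Trgv2 and Trbv16 stayed called in 20 of 20 fits that left out a tumor, Trbv14 in 14 and Trbv5 in 13. For isotype control tumors against the cell line, leaving out 1 sample gave 0 to 1 call. With the replicate block 0 members were called at 8 day and 1 in PD-1cKO, but same-numbered tumors did not deviate together (r of -0.21 to 0.04 at 8 day and -0.19 to 0.11 at 28 day), and 0 tumors of either comparison correlated best with their own number. The causes were not tested.

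The PD-1cKO difference in Trav subgroups was 0.2554 in 20 fragments per tumor, with copies merged, against 2.4 for merged subgroups at all fragments and 10.3 for unmerged members at all fragments. With the inverse Simpson index the evenness differences at 8 day, 4 day and 28 day were -0.1922, -0.02074 and -0.09677 for Trav and -0.3145, -0.1069 and -0.2265 for Trbv. With copies merged the Trav difference was -0.04054 at 8 day and -0.0317 at 4 day, and with members of at least 0.1 FPKM it was -0.008005 at 4 day, against 0.06 with all members. The Trgv number detected differed by 0.1 at that limit in PD-1cKO. Within the run of WT tumors 1 to 9 the differences were 18.2 FPKM for Trav and 44.9 FPKM for Trbv. Depth limits single members, since 1 fragment of Trbv13-1 was worth 0.213 to 0.333 FPKM in the antibody groups.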
